A study of Mus musculus with 13 samples.

Results

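Nucleobindins and genes of traffic between the endoplasmic reticulum (ER) and the Golgi were examined in livers of alcohol-fed mice. The group held 10 of the 53392 genes in the count table: the nucleobindins Nucb1 and Nucb2, the KDEL receptors Kdelr1, Kdelr2 and Kdelr3, the Yip1-interacting factors Yif1a and Yif1b, the COPII coat genes Sec23b and Sec24d, and the translocon gene Sec61b. Nucb2 and Yif1b were chosen because their counts were higher in the transgenic mice given doxycycline (Dox), so their values in comparisons with that group are a description and carry no test. The other 8 genes are paralogs of these genes or act in the same transport steps. Of the 10 genes, 9 passed the filter on low counts and Kdelr3 did not.

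The study asked what hepatic overexpression of acid ceramidase (ASAH1), which removes the acyl chain from ceramide, does in livers of mice that drink alcohol. RNA-seq of whole liver was available from 13 female mice, 8 to 14 weeks old, all fed a Lieber-DeCarli liquid diet with 28% of calories from ethanol (Etoh) for 4 weeks. Every mouse carried Albumin-Cre and, at Rosa26, a loxP-stop-loxP-rtTA allele, each in homozygous form, which place the Dox-dependent activator rtTA in hepatocytes. Only ASAH+ mice also carried TRE-ASAH1, the transgene that rtTA switches on when Dox is given, and ASAH- littermates lacked it. The 4 ASAH- Etoh-Dox mice and the 5 ASAH+ Etoh-Dox mice received 200 mg/l Dox in the diet, while the 4 ASAH+ Etoh mice received none. ASAH+ Etoh-Dox against ASAH- Etoh-Dox compares mice with and without the transgene under the same drug. In ASAH+ Etoh-Dox against ASAH+ Etoh the drug and the induced transgene cannot be told apart. ASAH- Etoh-Dox against ASAH+ Etoh compares groups that both lack induced ASAH1 and differ in Dox and in carrying TRE-ASAH1. Each pair of comparisons shares a group of mice, so they are not independent of each other. Total counts per mouse ran from 17819486 to 35358711, with a median of 24454043.

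Proteins enter the secretory pathway through the Sec61 channel of the ER membrane, leave the ER in vesicles coated by COPII, and reach the Golgi. KDEL receptors in the Golgi bind the tail of ER-resident proteins that have escaped and bring them back to the ER in COPI vesicles. Nucleobindins are calcium-binding proteins of the Golgi and of secreted material, and in hepatocytes this route carries albumin, clotting factors and lipoproteins.

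Asah1 counts were examined first because they check the labels. The sample titles and the descriptions of the ASAH+ mice gave opposite Dox treatments, and the descriptions, which match the induction label and the column names, were used. Asah1 stood at 10314, 9668, 15134, 12725 and 15935 CPM (counts relative to the TMM-scaled total of each mouse) in ASAH+ Etoh-Dox replicates 1 to 5, and between 40.0 and 55.0 CPM in the 8 other mice. The ASAH+ Etoh-Dox mice were separate from all others, with a log2 fold change of 8.01 ± 0.20 (SE) against ASAH- Etoh-Dox (edgeR adjusted p = 1.24e-11; exact two-sided permutation p = 0.00794, the smallest that 5 against 4 mice can give). Against ASAH+ Etoh the Asah1 log2 fold change was 8.10 ± 0.21 (edgeR adjusted p = 1.13e-11). The liver label was checked against hepatocyte genes: Alb had at least 1613738 counts in every mouse.

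Per kilobase of the longest protein-coding transcript, the level of the 10 genes ran over a wide range, and their order is given as means over 13 mice. Kdelr1 was highest at 50.8 ± 3.02 (SD) CPM per kilobase, followed by Nucb1 at 35.7 ± 4.35, Kdelr2 at 34.3 ± 3.82 and Sec61b at 33.6 ± 4.98. Nucb1 exceeded Kdelr2 in 9 of 13 mice and Kdelr2 exceeded Sec61b in 8 of 13, so these neighbours did not separate. Yif1a followed at 25.3 ± 2.94, Sec24d at 19.3 ± 3.16, Yif1b at 13.8 ± 3.12 and Sec23b at 10.2 ± 2.72 CPM per kilobase. Yif1b was above Sec23b in 11 of 13 mice. Nucb2 at 1.74 ± 1.16 and Kdelr3 at 0.154 ± 0.0996 CPM per kilobase were the lowest, and the remaining neighbours in this order kept it in 13 of 13 mice. The order depended on the transcript length used: with the median length of the protein-coding transcripts, a choice made after seeing the data, Nucb1 moved to 221 CPM per kilobase and Sec23b to 40.9. Over all 13 mice the coefficient of variation was 5.96% for Kdelr1 and 26.6% for Sec23b.

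**Figure D1:**
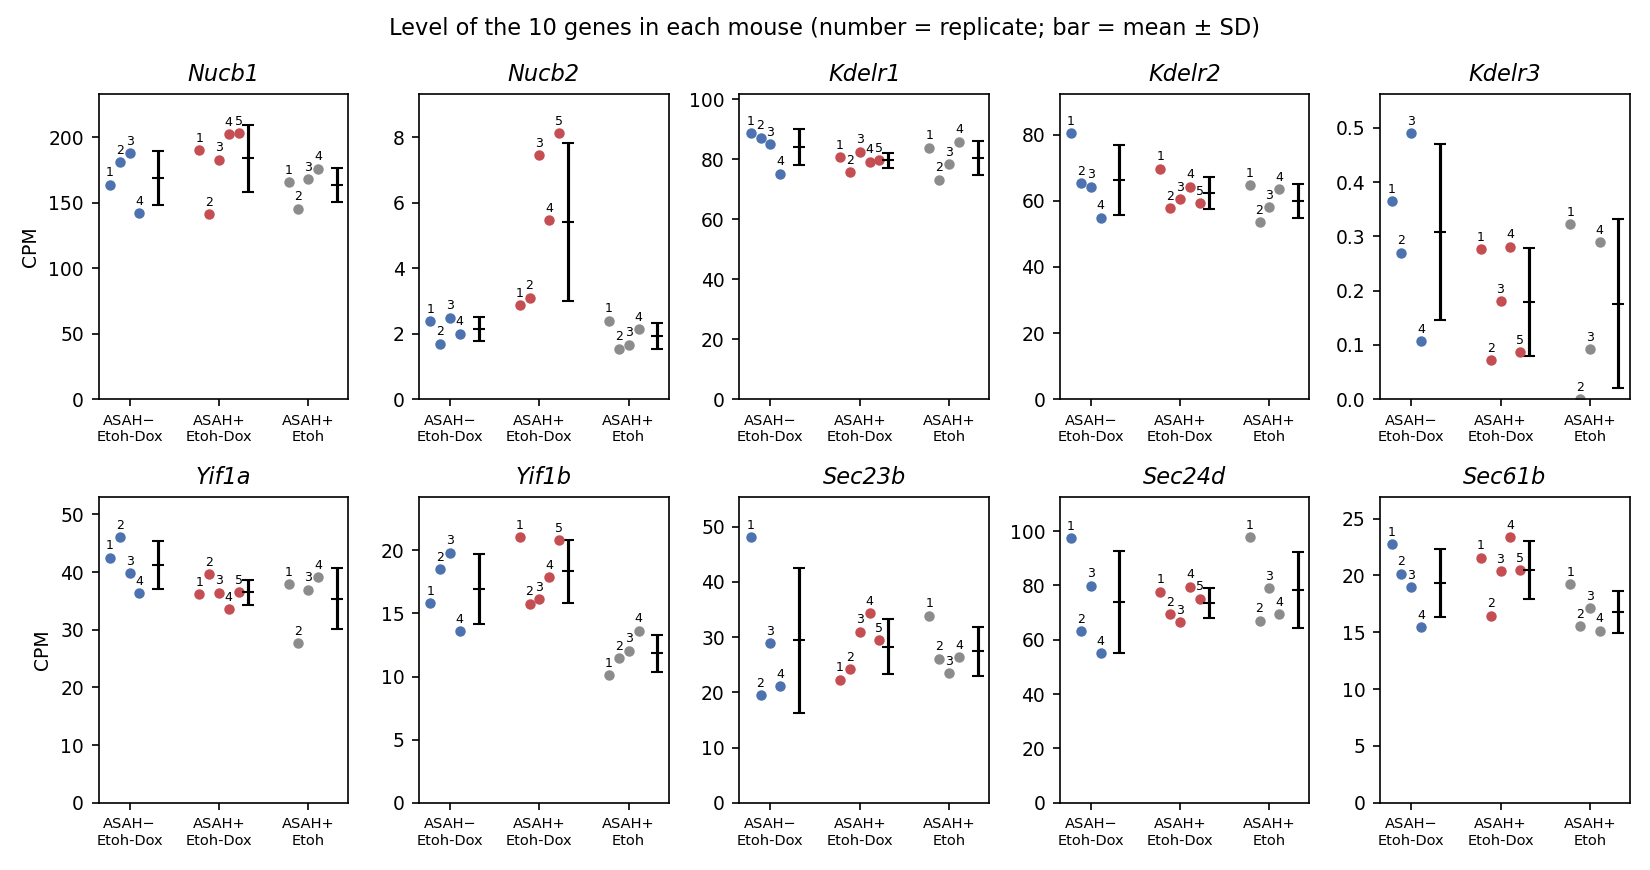
Level of each of the 10 genes in CPM (vertical axis, from 0) in the 13 mice, with the replicate number beside each point and the mean ± SD of each group as a bar. Nucb2 is above 5 CPM in replicates 3, 4 and 5 of ASAH+ Etoh-Dox and at or below 3.10 CPM in the other 10 mice.

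Nucb2 encodes the nucleobindin from which the peptide nesfatin-1 is cut, and lies at chr7:116504369-116540584 on the plus strand (ENSMUSG00000030659, build GRCm38). Nucb1, its paralog and an abundant Golgi protein, lies on the minus strand of the same chromosome at chr7:45490458-45510406 (ENSMUSG00000030824). Promoters are shown here because several ER stress genes are known to carry joined CCAAT and CCACG elements at their starts. RefSeq promoters (GRCm38.p6, 250 bases before to 50 bases after the start) were found for 9 of the 10 genes, and Kdelr2 had no entry. Each motif was searched on both strands: ERSE is CCAAT, any 9 bases, CCACG, and ERSE-II is ATTGG, any 1 base, CCACG. The core of the UPRE was searched as TGACGTGG. No promoter of the 9 genes held ERSE, which 0.119% of all 32851 promoters held. ERSE-II was in 0.0365% of all promoters and in that of Nucb1, 41 bases before the start on the opposite strand, shown in capitals within chr7:45510419-45510469, minus strand. In the 250 bases before the start of Nucb2, chr7:116504119-116504368, plus strand, the capitals mark 2 CCAAT and 1 CCACG that are not spaced as either motif.
Nucb1: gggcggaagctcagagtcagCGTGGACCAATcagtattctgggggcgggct
Nucb2: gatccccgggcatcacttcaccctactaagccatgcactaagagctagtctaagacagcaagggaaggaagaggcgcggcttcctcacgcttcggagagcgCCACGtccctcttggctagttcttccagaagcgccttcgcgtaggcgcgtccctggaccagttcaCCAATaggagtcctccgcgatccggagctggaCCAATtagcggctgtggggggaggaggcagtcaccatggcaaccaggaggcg
A match is only a run of letters in this window, and nothing was measured here on factors that bind it.

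Nucb2 stood at 2.88, 3.10, 7.45, 5.46 and 8.11 CPM in ASAH+ Etoh-Dox replicates 1 to 5. In ASAH- Etoh-Dox replicates 1 to 4 it stood at 2.37, 1.70, 2.49 and 2.00 CPM. In ASAH+ Etoh replicates 1 to 4 the values were 2.40, 1.55, 1.67 and 2.14 CPM. Every ASAH+ Etoh-Dox mouse was above every mouse of both other groups, and within that group replicates 3, 4 and 5 stood well above replicates 1 and 2. These levels rest on few reads, from 36 to 206 counts per mouse. The mean was 5.40 ± 2.41 CPM (SD, n = 5) in ASAH+ Etoh-Dox, 2.14 ± 0.36 (n = 4) in ASAH- Etoh-Dox and 1.94 ± 0.40 (n = 4) in ASAH+ Etoh. As a description of the values that chose it, the log2 fold change of Nucb2 was 1.33 ± 0.30 (SE) against ASAH- Etoh-Dox and 1.47 ± 0.31 against ASAH+ Etoh. The choice did not use ASAH- Etoh-Dox against ASAH+ Etoh, although both groups were in comparisons that it used, and there the log2 fold change of Nucb2 was 0.14 ± 0.33 (edgeR adjusted p = 0.933; exact two-sided permutation p = 0.457, smallest possible 0.0286). ASAH- Etoh-Dox was higher in 11 of 16 pairs of mice, and the 95% interval of this difference ran from -0.59 to 0.88. In bulk liver, fewer cells of a type and less RNA per cell cannot be told apart.

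Nucb1 stood in its ASAH+ Etoh-Dox mice at 190, 141, 183, 202 and 203 CPM in replicates 1 to 5, in its ASAH- Etoh-Dox mice at 164, 181, 188 and 142, and in its ASAH+ Etoh mice at 166, 146, 168 and 176. The 3 groups overlapped. The Nucb1 log2 fold change was 0.12 ± 0.11 (SE) for ASAH+ Etoh-Dox against ASAH- Etoh-Dox, higher in 15 of 20 pairs (edgeR adjusted p = 1.00), and 0.17 ± 0.11 against ASAH+ Etoh, higher in 16 of 20 pairs (edgeR adjusted p = 0.780). Between the groups without induction it was 0.043 ± 0.12 (edgeR adjusted p = 0.948). Leaving out single mice, the Nucb1 value against ASAH- Etoh-Dox ran from 0.050 to 0.20. Per length, the ratio of Nucb1 to Nucb2 was 31.8 ± 7.0 (SD) in ASAH- Etoh-Dox, 15.6 ± 6.77 in ASAH+ Etoh-Dox and 34.1 ± 5.45 in ASAH+ Etoh, which restates the choice of Nucb2. The size of this ratio rests on the longest coding transcript. With the median length, mean Nucb1 moved from 35.7 to 221 CPM per kilobase and mean Nucb2 from 1.74 to 1.85.

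Across all genes, edgeR called 2 of 14317 genes at an adjusted p under 0.1 in each comparison, which is 0.014% in each. Asah1 and Sod1, the cytosolic superoxide dismutase, were the genes called with ASAH+ Etoh-Dox. Sod1 was higher by a log2 fold change of 0.69 ± 0.092 against ASAH- Etoh-Dox (edgeR adjusted p = 0.0212) and of 1.02 ± 0.093 against ASAH+ Etoh (edgeR adjusted p = 1.97e-04). The mitochondrial genes mt-Co2, at 1.5 ± 0.22, and mt-Co3, at 0.74 ± 0.10, were called higher in ASAH- Etoh-Dox against ASAH+ Etoh (edgeR adjusted p = 0.0800 and 0.0633). Both calls were lost at an adjusted p under 0.05, in edgeR on the groups compared alone and with a block for replicate number. Of the 10 genes, edgeR called 0 of 7 tested with ASAH+ Etoh-Dox against ASAH- Etoh-Dox, 0 of 7 against ASAH+ Etoh and 0 of 9 between the groups without induction. At an unadjusted p under 0.05 the counts were 0 in the first comparison, where 1.29% of all genes were higher and 1.57% lower. They were 1 higher (Sec61b) in ASAH+ Etoh-Dox against ASAH+ Etoh, where 4.05% of all genes were higher and 3.24% lower. They were 1 higher (Yif1b) in ASAH- Etoh-Dox against ASAH+ Etoh, where 5.08% were higher and 4.11% lower. Yif1b was chosen partly for its low values in ASAH+ Etoh, which lift this difference too, and of the 7 genes tested that were not chosen on the counts 0 were higher or lower here. DESeq2 on all 13 mice called Yif1b in the last comparison, where it called 150 genes in all, and none of the others, and limma-voom called 0 in each. DESeq2 gave an adjusted p to 5 of 8 genes against ASAH+ Etoh and to 8 of 10 between the groups without induction, since its own filter leaves some genes out. Of the 8 genes not chosen on the counts, 0 had groups of mice that did not overlap in any comparison. Counted over all 10 genes, those without overlap were 1, 2 and 0, and leaving out a single mouse moved these counts to as many as 3, 4 and 2. With fewer mice any gene separates more easily, and the share over all genes was computed for all 13 mice only. Among all genes, the share without overlap was 0.44% higher and 0.447% lower with ASAH+ Etoh-Dox against ASAH- Etoh-Dox. The shares were 1.09% and 1.49% against ASAH+ Etoh, and 3.09% and 2.4% in ASAH- Etoh-Dox against ASAH+ Etoh. The choice itself gave Nucb2 without overlap in both comparisons with ASAH+ Etoh-Dox, and Yif1b against ASAH+ Etoh.

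**Figure D2:**
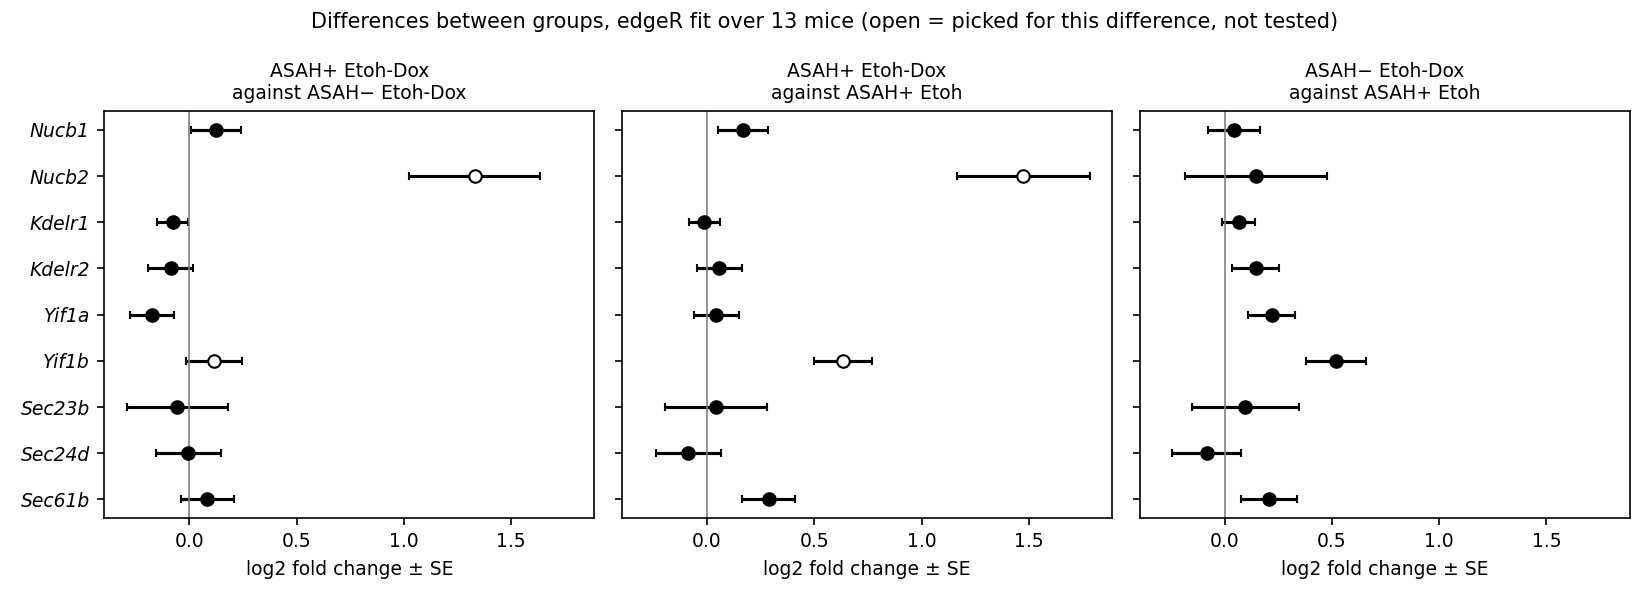
Log2 fold change with its standard error (horizontal axis) of the 9 genes that passed the filter, in a panel for each comparison, with open points for Nucb2 and Yif1b where they were chosen for that difference. The 7 genes with closed points in the left panel lie between -0.17 and 0.12, and Yif1b in the right panel lies at 0.52.

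KDEL receptors return ER proteins from the Golgi, and Kdelr1 was above Kdelr2 per length in every mouse while Kdelr3 was barely counted. Kdelr1 (chr7:45872772-45883732, ENSMUSG00000002778) was the steadiest of the 10 genes, between 73.2 and 88.6 CPM over all mice. Its log2 fold change was -0.078 ± 0.072 with ASAH+ Etoh-Dox against ASAH- Etoh-Dox, with a 95% interval from -0.24 to 0.084. Against ASAH+ Etoh it was -0.013 ± 0.073, with an interval from -0.17 to 0.15, so a difference much beyond 0.2 on the log2 scale in either direction lies outside these intervals. Kdelr2 (chr5:143403838-143421901, ENSMUSG00000079111) lay between 53.5 and 80.4 CPM, the highest value in ASAH- Etoh-Dox replicate 1. Its log2 fold change was -0.087 ± 0.10 against ASAH- Etoh-Dox and 0.028 without that mouse. It was 0.14 ± 0.11 in ASAH- Etoh-Dox against ASAH+ Etoh (edgeR adjusted p = 0.729) and 0.021 without the same mouse. Against ASAH+ Etoh it was 0.057 ± 0.10 and 0.0040 without ASAH+ Etoh-Dox replicate 1. Per length, Kdelr1 was 1.47 ± 0.10 (SD) times as high as Kdelr2 in ASAH+ Etoh-Dox, 1.47 ± 0.14 times in ASAH- Etoh-Dox and 1.53 ± 0.035 times in ASAH+ Etoh.

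Kdelr3 (chr15:79516411-79527739, ENSMUSG00000010830) had 8, 7, 12 and 3 counts in ASAH- Etoh-Dox, 10, 2, 5, 7 and 2 in ASAH+ Etoh-Dox, and 7, 0, 2 and 5 in ASAH+ Etoh. The mouse with 0 counts, ASAH+ Etoh replicate 2, allows a level of up to 0.122 CPM by 3 counts of its total. Such a floor covers counting error only, since PCR reads are not independent molecules, while the 95% intervals of the fold changes come from the edgeR fit and include the spread between mice. Without the filter the Kdelr3 log2 fold change was -0.71 ± 0.62 against ASAH- Etoh-Dox (edgeR adjusted p = 0.900) and 0.11 ± 0.67 against ASAH+ Etoh (edgeR adjusted p = 1). In ASAH- Etoh-Dox against ASAH+ Etoh it was 0.82 ± 0.69 (edgeR adjusted p = 0.763), and no difference was detectable at this depth. Its promoter held the UPRE core, found in 0.676% of all promoters, 30 bases before the start on the opposite strand, marked in capitals within chr15:79516358-79516405, plus strand.
Kdelr3: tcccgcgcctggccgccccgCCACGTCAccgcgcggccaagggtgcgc
Sec24d was the other gene of the group with this core, 26 bases before its RefSeq start on its own strand. At chr3:123267470-123267477 that core lies inside the annotated span of the gene, chr3:123267455-123365641. The sequence of Kdelr3 is shown because it holds this core, while its counts here were too few for a test.

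COPI vesicles carry KDEL receptors back to the ER, and none of the 16 COPI coat and Arf cycle genes was called in any comparison by edgeR, DESeq2 or limma-voom. With ASAH+ Etoh-Dox against ASAH- Etoh-Dox, 0 were higher and 1 was lower at an unadjusted p under 0.05, beside 1.29% and 1.57% of all genes. The median log2 fold change was -0.055 beside -0.0023 over all genes. Arfgap2, which helps Arf1 hydrolyse GTP on the coat, was the lower gene, at -0.19 ± 0.071 (edgeR adjusted p = 1.00; exact two-sided permutation p = 0.0317). Its relative Arfgap1 stood at -0.18 ± 0.098. Against ASAH+ Etoh, 1 was higher and 0 lower, beside 4.05% and 3.24% of all genes. The median was -0.016 beside 0.013 over all genes. DESeq2 on all 13 mice gave an adjusted p to 11 of 16 in this comparison. Cope, a coat subunit, was the higher gene at 0.19 ± 0.085, and Arf5 stood at 0.26 ± 0.14. In ASAH- Etoh-Dox against ASAH+ Etoh, 1 was higher and 0 lower, beside 5.08% and 4.11% of all genes. The list had a median of 0.063 beside 0.016 over all genes, led by Arfgap1 at 0.23 ± 0.10 and Cope at 0.19 ± 0.089.

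Sec23b and Sec24d form the inner layer of the COPII coat, in which Sec23 acts on the GTPase Sar1 and Sec24 binds cargo. Sec23b (chr2:144556229-144590749, ENSMUSG00000027429) stood at 48.2, 19.5, 28.9 and 21.2 CPM in ASAH- Etoh-Dox, 22.3, 24.2, 31, 34.4 and 29.5 in ASAH+ Etoh-Dox, and 33.9, 26.1, 23.5 and 26.4 in ASAH+ Etoh. ASAH- Etoh-Dox replicate 1 was far above the rest, and the groups overlapped. The Sec23b log2 fold change was -0.056 ± 0.24 against ASAH- Etoh-Dox and 0.30 without that mouse, while in ASAH- Etoh-Dox against ASAH+ Etoh it was 0.097 ± 0.25 and -0.26 without it. The first of these also turned to 0.021 without ASAH+ Etoh-Dox replicate 1, so its direction rests on single mice. Against ASAH+ Etoh it was 0.040 ± 0.24 (edgeR adjusted p = 0.987). Sec24d (chr3:123267455-123365641, ENSMUSG00000039234) lay between 55.2 and 97.9 CPM, with ASAH- Etoh-Dox replicate 1 at 97.4 and ASAH+ Etoh replicate 1 at 97.9. Its log2 fold change was -0.0045 ± 0.15 against ASAH- Etoh-Dox, 0.17 without ASAH- Etoh-Dox replicate 1, and -0.088 ± 0.15 against ASAH+ Etoh. In the same ASAH- mouse the ER chaperone Hspa5 stood at 811 CPM against 278 to 360 in its group, and the part of that mouse's state in the Sec23b result was not tested beyond leaving it out.

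The other COPII coat and ER exit site genes were also without a call: 0 of 16 in each comparison by edgeR, DESeq2 and limma-voom. At an unadjusted p under 0.05, 0 were higher and 0 lower with ASAH+ Etoh-Dox against ASAH- Etoh-Dox, 0 and 1 against ASAH+ Etoh, and 0 and 1 in ASAH- Etoh-Dox against ASAH+ Etoh. In the same order, 1.29% and 1.57%, 4.05% and 3.24%, and 5.08% and 4.11% of all genes were higher and lower. Against ASAH+ Etoh, DESeq2 on all 13 mice gave an adjusted p to 13 of the 16. The list medians were -0.030, -0.0086 and -0.018 on the log2 scale. Sec23a, the paralog of Sec23b, was the lower gene in both comparisons with ASAH+ Etoh, which share the ASAH+ Etoh mice. It stood at -0.29 ± 0.10 in ASAH+ Etoh-Dox (edgeR adjusted p = 0.551) and at -0.23 ± 0.11 in ASAH- Etoh-Dox (edgeR adjusted p = 0.533). The next genes by p were Mia3 at 0.20 ± 0.13 and Sec13 at -0.13 ± 0.086 against ASAH- Etoh-Dox, Sec16a at -0.16 ± 0.082 against ASAH+ Etoh, and Sec24a at -0.19 ± 0.13 in ASAH- Etoh-Dox against ASAH+ Etoh. Cargo receptors and p24 proteins had 18 of 19 genes tested and 0 called, with medians of -0.00059, 0.0033 and 0.014. DESeq2 on all 13 mice gave an adjusted p to 13 of 18 against ASAH+ Etoh. In that list 0 genes were higher or lower at an unadjusted p under 0.05 in the comparisons with ASAH+ Etoh-Dox, beside the shares of all genes above. Tmed3 was the 1 gene higher in ASAH- Etoh-Dox against ASAH+ Etoh, beside 5.08% of all genes, at 0.46 ± 0.21. It stood at 0.37 ± 0.20 in ASAH+ Etoh-Dox against ASAH+ Etoh. Lman1, the lectin that carries clotting factors, stood at -0.16 ± 0.096 in ASAH+ Etoh-Dox and at -0.16 ± 0.10 in ASAH- Etoh-Dox, each against ASAH+ Etoh. Against ASAH- Etoh-Dox the genes named by p were Ergic1 at 0.11 ± 0.14 and Tmed10 at -0.058 ± 0.083.

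Yif1b (chr7:29238329-29247597, plus strand, ENSMUSG00000030588) encodes a multispanning membrane protein of the early Golgi that binds Yip1 family proteins. The 250 bases before its RefSeq start, chr7:29238073-29238322, hold 2 CCAAT elements, in capitals on the opposite strand, and no complete CCACG, and they are shown beside those of Nucb2 because both genes were chosen on the same counts.
Yif1b: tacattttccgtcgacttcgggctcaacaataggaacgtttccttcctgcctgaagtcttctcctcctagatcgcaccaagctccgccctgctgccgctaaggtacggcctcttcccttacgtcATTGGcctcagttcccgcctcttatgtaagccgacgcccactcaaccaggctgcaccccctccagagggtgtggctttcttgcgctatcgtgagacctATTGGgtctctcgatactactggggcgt

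Yif1b stood at 21.1, 15.8, 16.1, 17.9 and 20.8 CPM in ASAH+ Etoh-Dox replicates 1 to 5, and at 15.8, 18.5, 19.8 and 13.6 CPM in ASAH- Etoh-Dox replicates 1 to 4. In ASAH+ Etoh replicates 1 to 4 the values were 10.1, 11.5, 12.1 and 13.6 CPM. Every ASAH+ Etoh-Dox mouse was above every ASAH+ Etoh mouse, while the Dox-fed groups overlapped with each other. As a description of the values that chose it, the log2 fold change of Yif1b was 0.63 ± 0.13 against ASAH+ Etoh and 0.12 ± 0.13 against ASAH- Etoh-Dox. Leaving out single mice moved the latter to between 0.023 and 0.20. ASAH- Etoh-Dox against ASAH+ Etoh was not used in the choice, although it shares the ASAH+ Etoh mice with a comparison that was, so their low values are part of the choice and its p-values are not independent of it. There Yif1b was higher in 15 of 16 pairs of mice, with a log2 fold change of 0.52 ± 0.14, which did not pass in edgeR (adjusted p = 0.389; exact two-sided permutation p = 0.0571, smallest possible 0.0286). DESeq2 on all 13 mice called it (adjusted p = 0.0934) among 150 genes, and over the alternatives the adjusted p of this difference ran from 0.0934 to 0.751.

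Kupffer cell markers were read in the same comparison. Of 6 Kupffer markers, 4 were higher in ASAH- Etoh-Dox against ASAH+ Etoh at an unadjusted p under 0.05, beside 5.08% of all genes, and edgeR called 0. Their summed level was 321, 315, 676 and 402 CPM in ASAH- Etoh-Dox replicates 1 to 4, 313, 246, 268 and 286 CPM in ASAH+ Etoh, and 440, 450, 237, 384 and 235 CPM in ASAH+ Etoh-Dox. Cd5l was the most abundant of them and none was at 0 in any mouse. Their part in the Yif1b difference was not tested.

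Yif1a (chr19:5088538-5092881, ENSMUSG00000024875), the paralog of Yif1b, stood at 42.5, 46.1, 39.7 and 36.3 CPM in ASAH- Etoh-Dox. It stood at 36.2, 39.7, 36.4, 33.5 and 36.5 CPM in ASAH+ Etoh-Dox and at 37.9, 27.6, 36.9 and 39.1 in ASAH+ Etoh. Its groups overlapped, with ASAH+ Etoh replicate 2 the lowest mouse. The Yif1a log2 fold change was -0.17 ± 0.10 with ASAH+ Etoh-Dox against ASAH- Etoh-Dox, where ASAH+ Etoh-Dox was higher in 3 of 20 pairs (edgeR adjusted p = 1.00; exact two-sided permutation p = 0.0794). It was 0.044 ± 0.10 against ASAH+ Etoh and -0.059 without ASAH+ Etoh replicate 2, and 0.22 ± 0.11 in ASAH- Etoh-Dox against ASAH+ Etoh (edgeR adjusted p = 0.568). Per length, the ratio of Yif1a to Yif1b was 1.91 ± 0.25 (SD) in ASAH- Etoh-Dox, 1.57 ± 0.27 in ASAH+ Etoh-Dox and 2.34 ± 0.43 in ASAH+ Etoh. The differences in this ratio carry the choice of Yif1b and are not a separate result. On the same scale Yif1a was above Yif1b in every mouse.

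In the YIP family, 8 of 9 genes were tested, 0 were called by edgeR, DESeq2 or limma-voom, and 0 were higher or lower at an unadjusted p under 0.05 in any comparison. Against ASAH+ Etoh, DESeq2 on all 13 mice gave an adjusted p to only 1 of the 8, so its count of 0 there covers 1 gene. The list medians were -0.039, -0.033 and 0.051 on the log2 scale. Yipf5, a mouse homolog of Yip1, stood at -0.15 ± 0.11 and Yipf3 at -0.10 ± 0.078 with ASAH+ Etoh-Dox against ASAH- Etoh-Dox. Rabac1, a Rab acceptor, stood at 0.25 ± 0.14 and Arl6ip5 at -0.15 ± 0.091 against ASAH+ Etoh. In ASAH- Etoh-Dox against ASAH+ Etoh, Rabac1 stood at 0.29 ± 0.14 and Yipf6 at -0.13 ± 0.10. SNAREs and tethers, which dock and fuse the vesicles, had 32 of 32 genes tested and 0 called by the same tools. At an unadjusted p under 0.05, 0 were higher and 0 lower against ASAH- Etoh-Dox, 0 and 1 against ASAH+ Etoh, and 2 and 2 in ASAH- Etoh-Dox against ASAH+ Etoh. For both lists the shares of all genes higher and lower were, in the same order, 1.29% and 1.57%, 4.05% and 3.24%, and 5.08% and 4.11%. DESeq2 on all 13 mice gave an adjusted p to 11 of the 32 against ASAH+ Etoh. Their medians were -0.022, -0.026 and 0.039. Trappc5 stood at 0.27 ± 0.12 and Trappc10 at -0.19 ± 0.079 in the last comparison, each without overlap between the groups, as were 3.09% of all genes higher and 2.4% lower, and Trappc6b at -0.16 ± 0.073 with ASAH+ Etoh-Dox against ASAH+ Etoh. The other genes named by p were Trappc5 at 0.21 ± 0.11 in that comparison, and Bet1l at -0.16 ± 0.13 and Trappc1 at -0.12 ± 0.096 against ASAH- Etoh-Dox.

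Sec61b (chr4:47474658-47483242, ENSMUSG00000053317) encodes the beta subunit of the channel through which new proteins cross the ER membrane. It stood at 21.6, 16.5, 20.4, 23.4 and 20.5 CPM in ASAH+ Etoh-Dox, 22.7, 20.2, 19 and 15.4 in ASAH- Etoh-Dox, and 19.2, 15.5, 17.1 and 15.2 in ASAH+ Etoh. The groups overlapped, with ASAH+ Etoh-Dox replicate 2 low among its group. The Sec61b log2 fold change was 0.29 ± 0.12 against ASAH+ Etoh, higher in 18 of 20 pairs, which did not pass (edgeR adjusted p = 0.645; exact two-sided permutation p = 0.0556). It was 0.082 ± 0.12 against ASAH- Etoh-Dox and 0.21 ± 0.13 in ASAH- Etoh-Dox against ASAH+ Etoh (edgeR adjusted p = 0.677). Of the words of 31 bases in its transcripts, 23.5% also occurred in other genes, 267 of 298 of them in Gm10320, so its counts are less certain than those of the other genes, for which at most 1.09% were shared.

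Among translocon and signal peptide processing genes, 24 of 24 were tested and 0 called by edgeR, DESeq2 or limma-voom. With ASAH+ Etoh-Dox against ASAH- Etoh-Dox, 2 were higher and 1 lower at an unadjusted p under 0.05, beside 1.29% and 1.57% of all genes, with a list median of -0.011. Against ASAH+ Etoh, 1 was higher and 0 lower, beside 4.05% and 3.24% of all genes, with a median of 0.062, and in ASAH- Etoh-Dox against ASAH+ Etoh 1 was higher and 0 lower, beside 5.08% and 4.11% of all genes, with a median of 0.033. The adjusted p of DESeq2 on all 13 mice covered 15 of 24 against ASAH+ Etoh and 23 of 24 in the last comparison. Sec11c, a catalytic subunit of signal peptidase, stood at 12.9, 12.6, 17.4, 14.8 and 16.7 CPM in ASAH+ Etoh-Dox and between 11.2 and 13.5 in the 8 other mice. As with Nucb2, replicates 3, 4 and 5 were the highest of all. Its log2 fold change was 0.27 ± 0.11 against ASAH- Etoh-Dox and 0.30 ± 0.11 against ASAH+ Etoh (edgeR adjusted p = 1.00 and 0.568). Spcs1, another signal peptidase subunit, went the other way against ASAH- Etoh-Dox at -0.16 ± 0.064, without overlap (edgeR adjusted p = 1.00; exact two-sided permutation p = 0.0159), and stood at 0.14 ± 0.067 in ASAH- Etoh-Dox against ASAH+ Etoh. The signal recognition particle gene Srp14 was also lower without overlap against ASAH- Etoh-Dox, as were 0.447% of all genes, at -0.15 ± 0.073 (edgeR adjusted p = 1.00; exact two-sided permutation p = 0.00794, the smallest possible). In ASAH- Etoh-Dox against ASAH+ Etoh it stood at 0.25 ± 0.078 (edgeR adjusted p = 0.389). The signal peptide peptidase H13 stood at 0.28 ± 0.12 against ASAH- Etoh-Dox, the other gene higher at an unadjusted p under 0.05 there, and at 0.20 ± 0.12 against ASAH+ Etoh.

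ER luminal proteins are the usual passengers of KDEL receptors, and 31 of 31 were tested. With ASAH+ Etoh-Dox against ASAH- Etoh-Dox, 6 were higher and 0 lower at an unadjusted p under 0.05, with a median log2 fold change of 0.077 beside -0.0023 over all genes. Over all genes 1.29% were higher and 1.57% lower. Against ASAH+ Etoh, 4 were higher and 0 lower, with a median of 0.15 beside 0.013, and over all genes 4.05% were higher and 3.24% lower. In ASAH- Etoh-Dox against ASAH+ Etoh, 1 was higher and 0 lower, with a median of 0.028 beside 0.016, and over all genes 5.08% were higher and 4.11% lower. EdgeR and limma-voom called 0 of them in each comparison, and DESeq2 called Sdf2l1 alone, on the ASAH+ Etoh-Dox and ASAH+ Etoh mice fitted without ASAH- Etoh-Dox (adjusted p = 0.00433), where it called 113 genes in all. The adjusted p of DESeq2 on all 13 mice covered 17 of 31 against ASAH+ Etoh and 29 of 31 in ASAH- Etoh-Dox against ASAH+ Etoh. Sdf2l1, a partner of ER chaperones, stood at 11.4, 7.78, 22.6, 19.1 and 15.3 CPM in ASAH+ Etoh-Dox, 12.6, 11.5, 7.02 and 5.08 in ASAH- Etoh-Dox, and 6.13, 5.33, 6.87 and 7.46 in ASAH+ Etoh. Its log2 fold change was 1.24 ± 0.32 against ASAH+ Etoh, higher in 20 of 20 pairs (edgeR adjusted p = 0.473; exact two-sided permutation p = 0.0159), and 0.75 ± 0.31 against ASAH- Etoh-Dox (edgeR adjusted p = 1.00). Pdia6, a disulfide isomerase, stood at 199, 181, 397, 279 and 325 CPM in ASAH+ Etoh-Dox and between 128 and 202 in the 8 other mice. Its log2 fold change was 0.70 ± 0.22 against ASAH- Etoh-Dox and 0.65 ± 0.22 against ASAH+ Etoh (edgeR adjusted p = 1.00 and 0.546). Replicates 3, 4 and 5, high in both genes, also stood apart from replicates 1 and 2 in the log2 ratio of the clock genes Dbp to Arntl. The ratio was -1.64, 0.15 and 2.70 against 6.64 and 6.78. A fit with this ratio as a covariate was run, but its values for both genes are not given here. The part of the clock in them was not tested further. Fkbp10, at 0.80 ± 0.29, and Sil1, at 0.17 ± 0.086, were the genes named in ASAH- Etoh-Dox against ASAH+ Etoh.

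**Figure D3:**
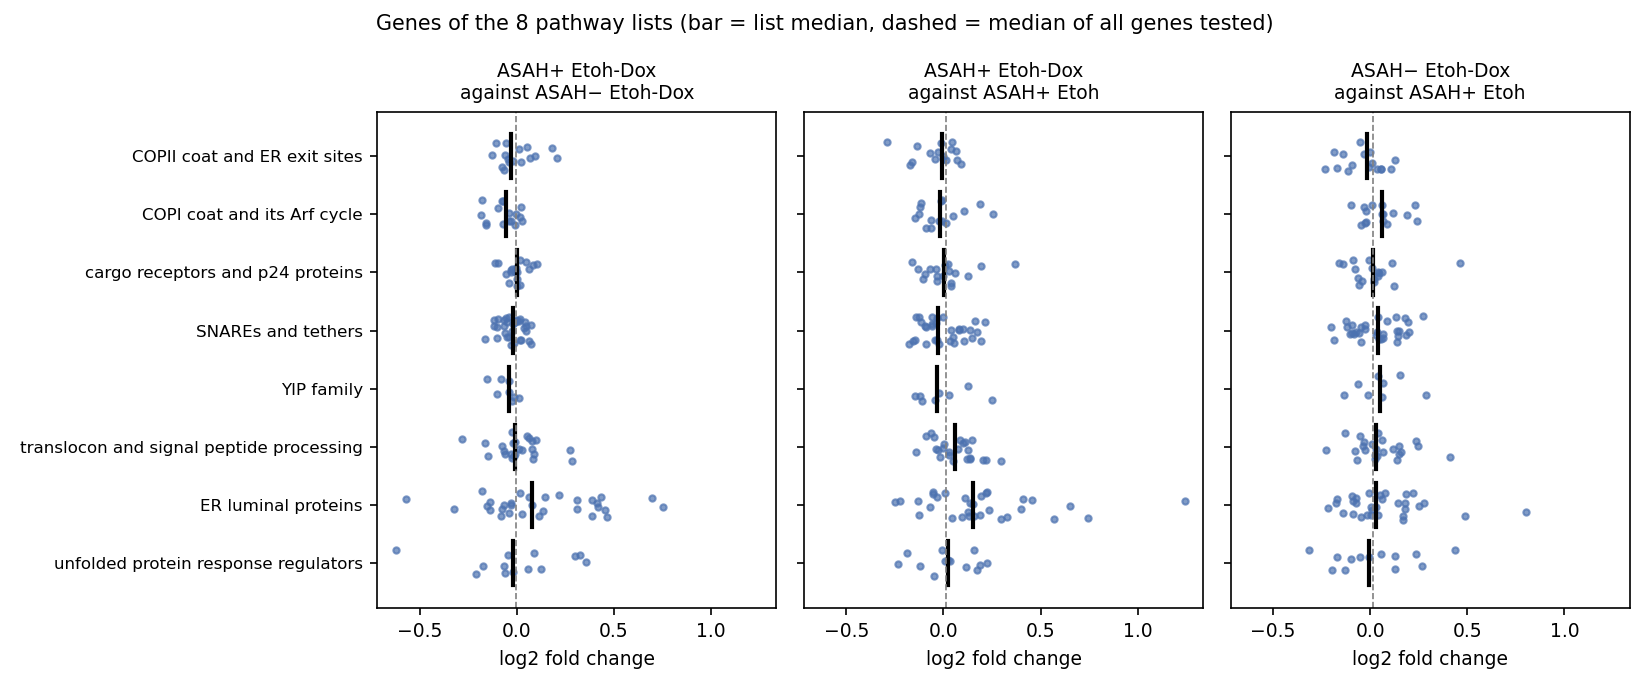
Log2 fold change (horizontal axis) of each tested gene in the 8 pathway lists, in a panel for each comparison, with the list median as a bar and the median of all genes as a dashed line. The bar of the ER luminal proteins lies at 0.077 in the left panel and at 0.15 in the middle panel, and the bars of the other 7 lists lie between -0.055 and 0.063 in all 3 panels.

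Regulators of the unfolded protein response, which control many ER luminal genes, had 13 of 13 genes tested and 0 called by edgeR, DESeq2 or limma-voom. The adjusted p of DESeq2 on all 13 mice covered 6 of 13 against ASAH+ Etoh and 12 of 13 in ASAH- Etoh-Dox against ASAH+ Etoh. Their medians were -0.021, 0.024 and -0.0064. At an unadjusted p under 0.05, 1 was higher and 1 lower against ASAH- Etoh-Dox: the sensor Ern1 at 0.33 ± 0.15 and Creb3 at -0.18 ± 0.081. Against ASAH+ Etoh, 0 were higher and 1 lower: Atf6 at -0.23 ± 0.089, beside Xbp1 at 0.19 ± 0.14. In ASAH- Etoh-Dox against ASAH+ Etoh, 1 was higher and 0 lower: Creb3l3 at 0.23 ± 0.10, beside Ern1 at -0.32 ± 0.15. In the same order of comparisons, 1.29% and 1.57%, 4.05% and 3.24%, and 5.08% and 4.11% of all genes were higher and lower. Of the genes that clear misfolded proteins from the ER, Derl3 stood at 1.60, 0.65, 25.6, 13.6 and 16.3 CPM in ASAH+ Etoh-Dox and at no more than 1.12 CPM in the 8 other mice. Replicates 3, 4 and 5 were again the high ones. The Derl3 log2 fold change was 4.37 ± 1.06 against ASAH- Etoh-Dox (edgeR adjusted p = 1.00; exact two-sided permutation p = 0.0476), and DESeq2 on all 13 mice called it (adjusted p = 0.0194) among 12 genes. Sel1l, which works beside it, was steadier, at 0.34 ± 0.092 against ASAH- Etoh-Dox (edgeR adjusted p = 1.00; exact two-sided permutation p = 0.0238), 0.089 ± 0.092 against ASAH+ Etoh and -0.25 ± 0.097 in ASAH- Etoh-Dox against ASAH+ Etoh. Hspa5 stood at 462, 356, 703, 759 and 662 CPM in ASAH+ Etoh-Dox, and its log2 fold change was 0.41 ± 0.33 against ASAH+ Etoh. Against ASAH- Etoh-Dox the Hspa5 log2 fold change was 0.41 ± 0.33 and 0.90 without ASAH- Etoh-Dox replicate 1, the mouse at 811 CPM.

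The mouse-to-mouse pattern of Nucb2 was compared with that of all other genes tested by Pearson r of log2 CPM over 13 mice, as a description. Nucb2 was chosen for high counts in ASAH+ Etoh-Dox, so this ranking favours genes high in that group, the induced Asah1 among them. The 5 genes most alike were Sec11c at r = 0.89, the GDP-mannose dehydratase Gmds at 0.86, the proton pump subunit Atp6v1g2 at 0.86, Gm1943 at 0.85 and Asah1 itself at 0.85. Spearman's rho was 0.61, 0.66, 0.71, 0.91 and 0.91 for the same genes. With group means removed, r was 0.77, 0.71, 0.76, 0.70 and 0.89. Without ASAH+ Etoh-Dox replicates 5 and 3, the mice farthest from the median of Nucb2, r was 0.67, 0.60, 0.76, 0.76 and 0.80. Over the 8 mice without induction, r was 0.060 for Sec11c and -0.19 for Gmds, while it was 0.49 for Atp6v1g2, 0.81 for Gm1943 and 0.60 for Asah1. These 8 mice are among the 13 by which the 5 genes were ranked. Gm1943 and Atp6v1g2 had mean levels of about 1 CPM or less, where counting error is large. Of the 5 genes, 1 was still among the most alike once group means were removed and 2 by Spearman's rho. Of the other genes of the group, Nucb1 had r = 0.57 with Nucb2, Sec61b 0.52, Yif1b 0.51, Sec23b 0.36, Sec24d 0.070, Kdelr2 0.033, Kdelr1 0.0070 and Yif1a -0.088.

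**Figure D4:**
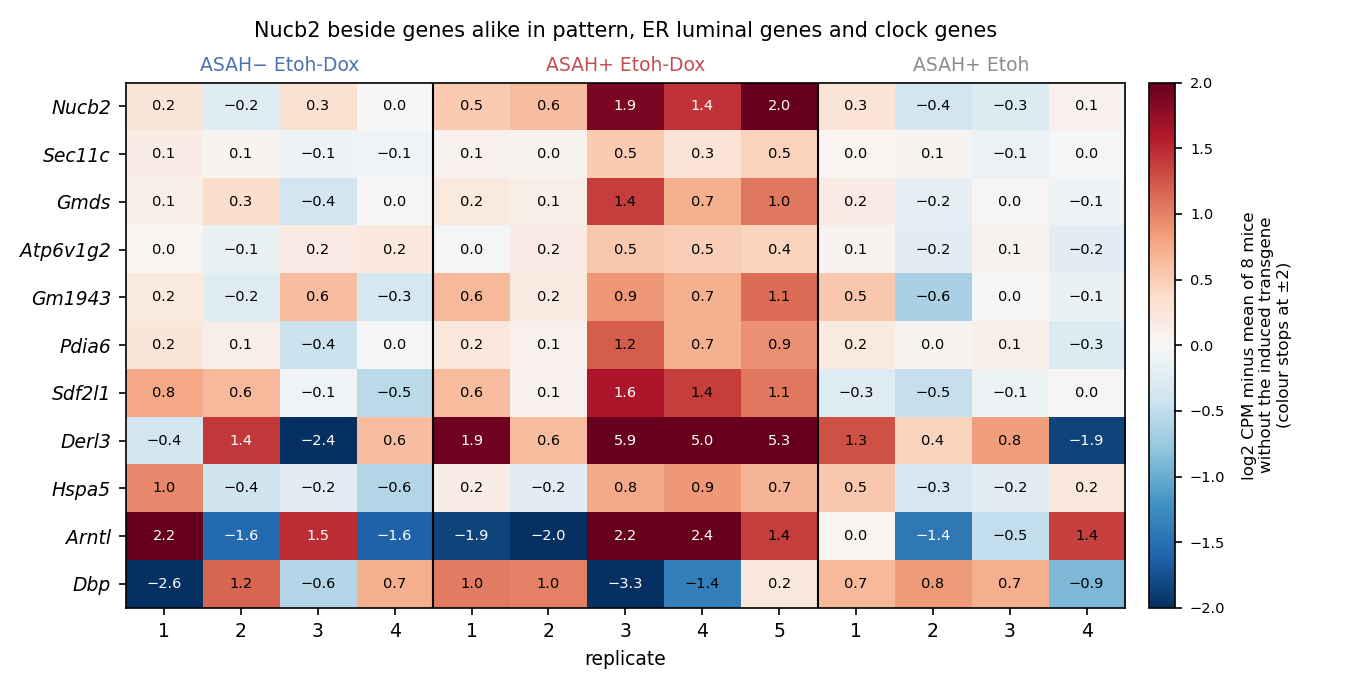
Log2 CPM of Nucb2, 4 genes alike in pattern, 4 ER protein genes and the clock genes Arntl and Dbp in each mouse (columns, by replicate), relative to the mean of the 8 mice without the induced transgene, with colours that stop at 2 in either direction. Nucb2, Pdia6, Sdf2l1 and Derl3 are highest in ASAH+ Etoh-Dox replicates 3, 4 and 5.

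The clock genes Arntl and Dbp, which peak at opposite times of day, differed between mice within each group. The log2 ratio of Dbp to Arntl was 6.64, 6.78, -1.64, 0.15 and 2.70 in ASAH+ Etoh-Dox replicates 1 to 5. It was -0.96, 6.49, 1.81 and 6.11 in ASAH- Etoh-Dox and 4.45, 6.06, 5.05 and 1.60 in ASAH+ Etoh. Within ASAH+ Etoh-Dox the mice with the lower ratios were replicates 3, 4 and 5. A fit with the Dbp to Arntl ratio as a covariate was among the 24 alternatives. Over these the Nucb2 log2 fold change ran from 1.09 to 1.49 against ASAH- Etoh-Dox. Against ASAH+ Etoh it ran from 1.21 to 1.63. The part of the clock in the Nucb2 values was not tested beyond that fit. Of 6 sinusoidal endothelial markers edgeR called 0 in each comparison. At an unadjusted p under 0.05, 4 were lower in ASAH+ Etoh-Dox against ASAH- Etoh-Dox, beside 1.57% of all genes, and 5 against ASAH+ Etoh, beside 3.24%. Their summed level was 124, 131, 108, 150 and 133 CPM in ASAH+ Etoh-Dox, 144, 125, 231 and 158 in ASAH- Etoh-Dox, and 191, 139, 172 and 176 in ASAH+ Etoh. By this sum ASAH+ Etoh-Dox overlapped with each other group, and no marker was at 0. Clec4g, the most abundant, was lower without overlap against ASAH+ Etoh, as were 1.49% of all genes, at -0.51 ± 0.16 (edgeR adjusted p = 0.512). Against ASAH- Etoh-Dox it overlapped, at -0.41 ± 0.16. The part of these markers in the Nucb2 values was not tested.

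Yif1b was most alike, again over 13 mice, to the ankyrin repeat gene Asb6 at r = 0.93, to Irf2bp1 at 0.93, to the tether subunit Trappc6a at 0.93, to the amino sugar deacetylase Amdhd2 at 0.92 and to the mitochondrial import gene Timm13 at 0.90. Spearman's rho was 0.92, 0.93, 0.92, 0.90 and 0.93 in that order. With group means removed r was 0.92, 0.92, 0.84, 0.88 and 0.85, and over the 8 mice without induction 0.95, 0.91, 0.95, 0.91 and 0.93. Without ASAH+ Etoh replicates 1 and 2, the mice farthest from the median of Yif1b, r was 0.88, 0.94, 0.86, 0.86 and 0.89. The 8 mice are among the 13 that picked these genes, and the choice of Yif1b on the counts also shapes this ranking. Of the 5 genes, 1 was still among the most alike with group means removed and 3 by Spearman's rho. Yif1a had r = 0.32 with Yif1b, and Nucb2 had 0.51, which was -0.0036 with group means removed.

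**Figure D5:**
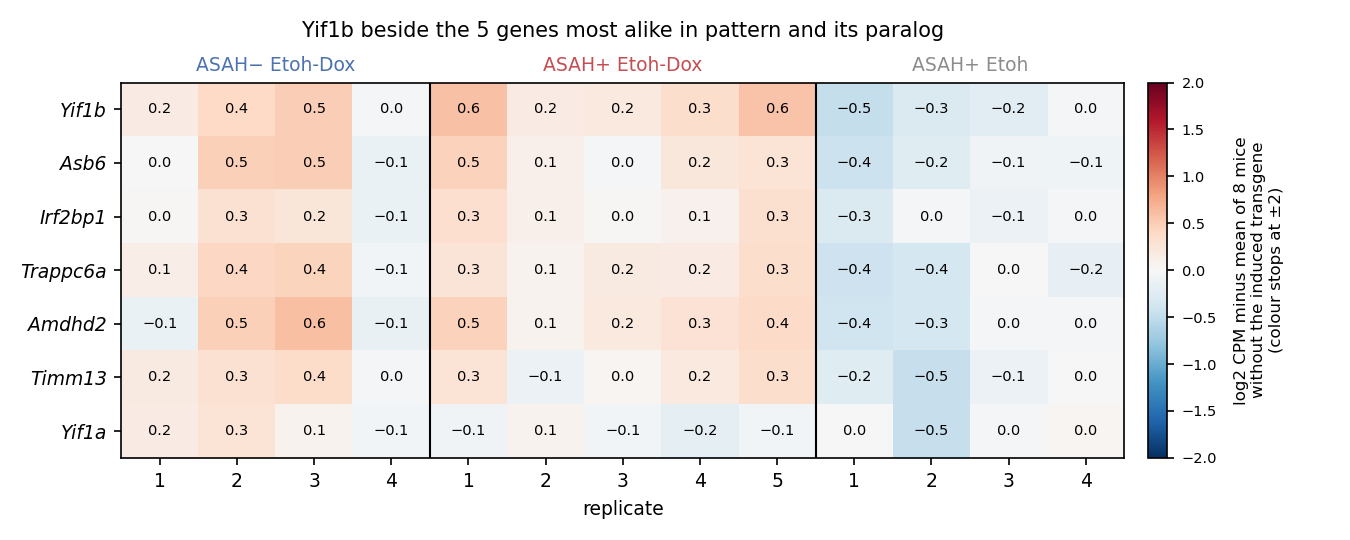
Log2 CPM of Yif1b, the 5 genes most alike to it and Yif1a in each mouse (columns, by replicate), relative to the mean of the 8 mice without the induced transgene. Yif1b and the 5 genes are low in ASAH+ Etoh replicate 1 and high in ASAH- Etoh-Dox replicates 2 and 3, and Yif1a is lowest in ASAH+ Etoh replicate 2.

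The remaining marker lists were measured in the same mice. Hepatocyte markers, led by Alb, had 8 genes tested and 0 called, with 1 lower at an unadjusted p under 0.05 in each comparison with ASAH+ Etoh-Dox, beside 1.57% and 3.24% of all genes. Their summed level was 131563 ± 15824 CPM (SD) in ASAH+ Etoh-Dox, 148404 ± 12445 in ASAH- Etoh-Dox and 136860 ± 12452 in ASAH+ Etoh. In the same order of groups, stellate markers, led by Dcn, summed to 213 ± 17.4, 250 ± 18.9 and 222 ± 26.8 CPM, and cholangiocyte markers, led by Spp1, to 39.4 ± 6.29, 49.6 ± 20.1 and 44.4 ± 5.69 CPM. B and plasma cell markers, led by Igkc, summed to 15.1 ± 8.26, 14.2 ± 2.77 and 10.7 ± 3.37 CPM, with Tnfrsf17 at 0 in 12 of 13 mice. Of 9 pancreatic acinar markers only Cela1 passed the filter, and Pnlip was at 0 in every mouse. None of the genes in these 5 lists was called by edgeR in any comparison, and cholangiocyte and acinar genes had 0 at an unadjusted p under 0.05. Of 6 stellate genes, 2 were higher in ASAH- Etoh-Dox against ASAH+ Etoh, beside 5.08% of all genes, and 1 was lower in ASAH+ Etoh-Dox against ASAH- Etoh-Dox, beside 1.57%. Of 4 B and plasma cell genes, 1 was higher in each comparison with ASAH+ Etoh, beside 4.05% and 5.08% of all genes. Of 8 hepatocyte genes, 1 was higher in ASAH- Etoh-Dox against ASAH+ Etoh at an unadjusted p under 0.05, beside 5.08% of all genes.

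By position, 4 of the 10 genes lie on chromosome 7, and Nucb1 and Kdelr1 are 362 kilobases apart on it. The gene before Nucb2 is Pik3c2a, a lipid kinase, which ends 60920 bases away. Pik3c2a stood at 0.070 ± 0.14 with ASAH+ Etoh-Dox against ASAH- Etoh-Dox, at -0.32 ± 0.14 against ASAH+ Etoh and at -0.39 ± 0.15 in ASAH- Etoh-Dox against ASAH+ Etoh (edgeR adjusted p = 1.00, 0.645 and 0.463). Xylt1, the next gene on the other side, did not pass the filter. Before Yif1b lies the potassium channel gene Kcnk6, 5814 bases away, at 0.15 ± 0.24 against ASAH+ Etoh and 0.28 ± 0.25 in ASAH- Etoh-Dox against ASAH+ Etoh. On the other side 2200002D01Rik overlaps the end of Yif1b on the opposite strand and stood at 0.055 ± 0.26 and 0.31 ± 0.28 in the same comparisons, at a mean level near 3 CPM or below. The libraries were stranded, but whether the counting used strand is not given in the sources used here, so reads in the overlap may be shared.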

How the data were processed

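Reads were assigned to transcripts by the authors with Salmon (version not given) on build GRCm38.p6 and summed per gene with tximport. These expected counts, as deposited by the authors, were whole numbers in 100% of values, and 53355 of 53392 identifiers were found in the annotation. The average transcript lengths of tximport were not among the files used, so counts were tested without length offsets. Counts were tested with edgeR 4.0.16 (R 4.3.3): filterByExpr kept 14317 genes, TMM scaled the totals, and quasi-likelihood tests compared 3 group means over 13 mice. Adjusted p is Benjamini-Hochberg, with calls under 0.1. DESeq2 1.42.0 and limma 3.58.1 served as other tools. Exact permutation tests used all splits of the mice compared, and p-values measure only the spread between these mice. Replicate numbers were not used as pairs.

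The genes of the group and the 8 pathway and 7 marker lists were chosen with earlier results of these data known. Outside the group, genes are named if called, if first or second by p in a pathway list whatever the direction, or if among the 5 most alike in pattern. Genes next to Nucb2 or Yif1b, and marker, clock or ER stress genes listed for reference, are also named. Protein sequences were not analysed here.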

Additional observations from a re-analysis of the deposited data

Results flagged for a closer look

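Hspa5, the main ER chaperone, stood at 811 CPM in ASAH- Etoh-Dox replicate 1 against 278 to 360 CPM in the 3 other mice of its group. This was the only value past Dixon's test for an outlier in the 42 groups of mice examined, where about 1 in 20 groups would pass by chance. Without this mouse the Hspa5 log2 fold change went from 0.41 to 0.90 with ASAH+ Etoh-Dox against ASAH- Etoh-Dox and from -0.0064 to -0.50 in ASAH- Etoh-Dox against ASAH+ Etoh. The same mouse had the highest Sec23b of all mice, at 48.2 CPM. The cause was not tested.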

How the results depend on the processing

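EdgeR called 2 genes in each comparison. In the order ASAH+ Etoh-Dox against ASAH- Etoh-Dox, ASAH+ Etoh-Dox against ASAH+ Etoh, and ASAH- Etoh-Dox against ASAH+ Etoh, DESeq2 on 13 mice called 12, 95 and 150 genes and DESeq2 on the groups compared alone 11, 113 and 168. Limma-voom called 1 in the last. Leaving Asah1 out gave 1 in the first and 1 in the second, no filter gave 4 in the second, edgeR on the groups alone gave 1, 3 and 0, a block for replicate number 1, 2 and 0, the Dbp to Arntl ratio 1 in the last, and an adjusted p under 0.05 gave 0 in the last. In that last comparison 727 genes were higher and 589 lower at an unadjusted p under 0.05 in edgeR. Leaving out single mice gave 1 to 2, 2 to 8 and 0 to 2. Mice with the same replicate number correlated at a mean of -0.133, 0.057 and -0.062, and 0, 2 and 1 of 4 correlated best with their own number. For the genes of the group, 613 of 648 values kept their label and 34 changed sign, none with a log2 fold change beyond 0.097 in size at the start. Yif1b in ASAH- Etoh-Dox against ASAH+ Etoh passed only in DESeq2 on 13 mice (adjusted p = 0.0934). Sec23b in the first comparison turned to 0.026 in limma-voom and 0.0029 with the block; with the Dbp to Arntl ratio it turned to -0.11 in the second and -0.071 in the last. Sec24d in the first turned from -0.0045 to 0.0020 in DESeq2 on 13 mice, 0.026 in limma-voom, 0.0057 without Asah1, 0.011 without a filter, 0.0054 in edgeR on the groups alone, 0.020 with the block and 0.0041 with the ratio. Leaving out single mice, the lowest and highest values in the first comparison were -0.17 and 0.028 for Kdelr2, -0.21 and 0.30 for Sec23b, -0.12 and 0.17 for Sec24d, and -0.012 and 0.18 for Sec61b. In the second they were -0.056 and 0.012 for Kdelr1, -0.059 and 0.087 for Yif1a, -0.040 and 0.16 for Sec23b, and -0.16 and 0.037 for Sec24d. In the last they were -0.013 and 0.12 for Nucb1, -0.26 and 0.25 for Sec23b, and -0.26 and 0.041 for Sec24d. Genes of the group without overlap between groups became 3 without ASAH- Etoh-Dox replicate 4 in the first, 4 without ASAH+ Etoh-Dox replicate 2 in the second and 2 without ASAH- Etoh-Dox replicate 4 in the last. The cause was not tested.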
